A study of Mus musculus with 2 samples.

Results

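Regulatory T cells (Tregs) were taken from 2 single-cell RNA sequencing libraries of mouse ovarian tumors by their raw counts of unique molecular identifiers (UMIs), the tags that mark single captured RNA molecules. A Treg was a cell with at least 1 UMI of Foxp3, at least 1 UMI over Cd3d, Cd3e and Cd3g together, and at most 1 UMI over Cd8a and Cd8b1 together. Tregs were thus chosen by their measured Foxp3, Cd3 and Cd8 UMIs, and these genes are not tested. The rule gave 78 Tregs of 15156 kept cells, 53 of 8770 in the control IgG library and 25 of 6386 in the Activin A antibody library. A cell was kept if it had between 1000 and 8500 detected genes, between 1000 and 100000 UMIs and no more than 10% of them from mitochondrial genes, and dividing cells stayed in. In both groups, C57BL/6 female mice aged 6 to 8 weeks carried syngeneic ovarian cancer cells (p53-/-, myc, Hras) injected i.p. after abrasion of the peritoneal wall. From 1 day after the injection they received daily i.p. injections of control IgG (7 mice per the labels) or of the Activin A neutralizing antibody (8 mice), and tumors at the abrasion site were collected after 10 days of treatment. The tumors of each group were pooled into 1 library without sorting for cell types, so the antibody cannot be told apart from library handling and no test between the groups was possible. These mouse numbers are those of one abrasion experiment in the study's text, but the experiment it describes as sequenced had other numbers, and its days of treatment and 10x chemistry differ from the labels too. Which experiment the libraries belong to was not settled.

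Tregs are CD4 T cells that hold other immune cells in check, and the transcription factor Foxp3 fixes their identity. They carry the high-affinity IL-2 receptor, the inhibitory receptor CTLA-4 and several TNF receptor family members, and act through IL-10, TGFβ activation, the capture of IL-2 and other routes. In tumors they are known as cells that restrain CD8 T cells, and TGFβ family cytokines can favor their formation.

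The 53 Tregs of the control IgG library held 445860 UMIs with a median of 5537 per cell, and the 25 Tregs of the antibody library held 150595 with a median of 4168. Depth was close to that of conventional CD4 T cells, whose medians were 5458 and 4716 UMIs. A few deep cells weighed heavily in the sums. In the control IgG library, a cell of 80885 UMIs supplied 18.1% of all Treg UMIs and carried 157 UMIs of ovarian cancer cell markers, with 1 Foxp3 UMI, 2 Cd3 UMIs and no UMI of Ikzf2, Il2ra or Ctla4. In the antibody library, a cell of 18600 UMIs supplied 12.4% of all Treg UMIs and carried 172 UMIs of macrophage markers beside 4 Foxp3, 28 Ikzf2 and 46 Cd3 UMIs. The deepest antibody Treg held 22867 UMIs, with under 5 UMIs of markers of other lineages when Ighm was not counted. Counted without Ighm, 5 or more UMIs of markers of other lineages were found in 6 of 53 (11.3%) and 2 of 25 (8.00%) Tregs, against 7.60% and 5.23% of conventional CD4 T cells. With Ighm counted, these were 17 of 53 (32.1%) and 3 of 25 (12%) Tregs against 8.48% and 5.36%. Such cells may hold the RNA of more than 1 cell, which was not tested. They were kept, as the rule has it, and some values are also given without them. Of the kept barcodes, 19 occurred in both libraries, and 0 of these were Tregs.

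**Figure D1:**
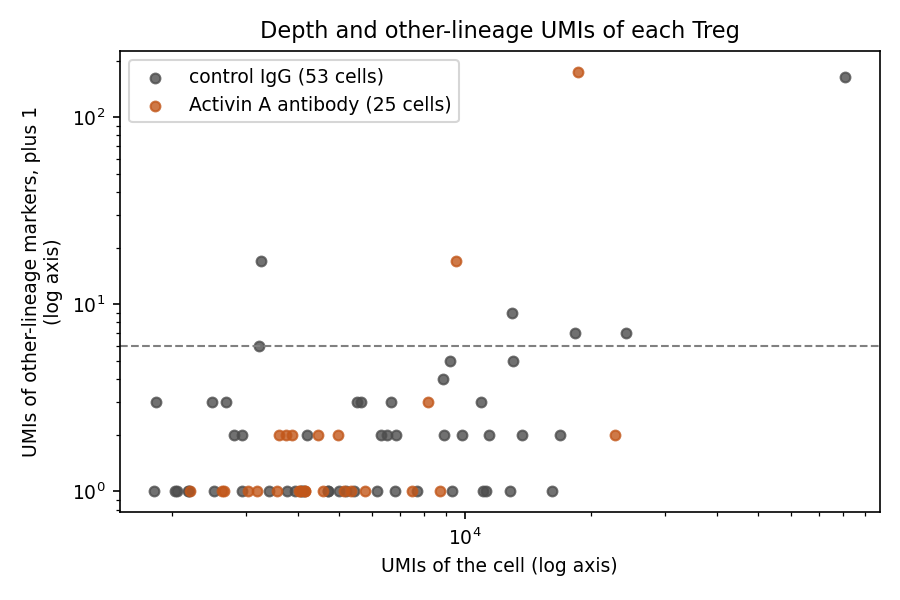
Each point is a Treg, by its UMIs (x axis, log scale) and its UMIs of other-lineage markers without Ighm plus 1 (y axis, log scale), for 53 control IgG and 25 antibody cells. The dashed line marks 5 UMIs, and the 2 cells far above the others are the cell of 80885 UMIs with cancer cell markers and the cell of 18600 UMIs with macrophage markers.

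Foxp3 lies on chromosome X at chrX:7573644-7595245 on the plus strand (GRCm38). The rule fixed its values in Tregs, which are given as a description: 125 UMIs in 53 control IgG cells and 65 UMIs in 25 antibody cells, or 280.4 and 432 UMIs per 1000000 UMIs of the summed cells (CPM), with a median of 2 and a highest count of 7 per cell in both libraries. Free RNA, read from barcodes with under 100 UMIs, held 0.956 and 0.867 CPM of Foxp3. No Foxp3 UMI was found in 1054 and 304 macrophages, which by the limit of 3 cells of the total allows shares of cells with a UMI of up to 0.285% and 0.987%, or in 216 and 130 B-lineage cells, which by the same limit allows up to 1.39% and 2.31%. Among cancer-like cells, by far the deepest, 1 of 183 control IgG cells (0.546%) and 0 of 288 antibody cells held a Foxp3 UMI. Macrophages (medians of 7496 and 5980 UMIs) were deeper than Tregs. Of cells with a Cd3 UMI and 2 or more Cd8 UMIs, 0.334% and 0.173% held a Foxp3 UMI. At the edge of the rule, 10 and 4 cells with a Foxp3 UMI had 3 or more Cd8 UMIs and were left out, 0 had exactly 2, and 11 Tregs had exactly 1. Another 2 cells with a Foxp3 UMI lacked Cd3. A Cd4 UMI was found in 44 of the 78 Tregs.

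The 4 other markers named for these cells were not used by the rule and set the Tregs apart from other T cells in both libraries. These were Il2ra, which encodes the IL-2 receptor alpha chain CD25, Ctla4, Tnfrsf18, which encodes the costimulatory receptor GITR, and Ikzf2, which encodes the transcription factor Helios. All 4 were detected together in 33 of 53 (62.3%) control IgG Tregs and 11 of 25 (44.0%) antibody Tregs, against 3.51% and 4.02% of conventional CD4 T cells and 2.10% and 1.82% of CD8 T cells. Of the 28 Tregs with a single Foxp3 UMI, 9 held all 4 markers, against 14 of 22 with 2 Foxp3 UMIs and 21 of 28 with at least 3. Depth rose in the same order, with median UMIs of 4334, 5003 and 6494 in the control IgG library and 3956, 4039 and 4976 in the antibody library, and its part in the order was not tested. Ikzf2 was detected in 92.5% and 96.0% of Tregs, Ctla4 in 94.3% and 84.0%, Tnfrsf18 in 88.7% and 84.0%, and Il2ra in 73.6% and 64.0%. Thinned to 2000 UMIs per cell, which left 29 and 15 Tregs, Ikzf2 was still detected in 93.1% and 93.3%, against 24.2% and 31.6% of conventional CD4 T cells. At most 1 of the 4 markers was detected in 2 of 53 and 1 of 25 Tregs, the deep cell with cancer cell markers among them, against 42.1% and 36.7% of conventional CD4 T cells, so the label held for most of the cells.

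**Figure D2:**
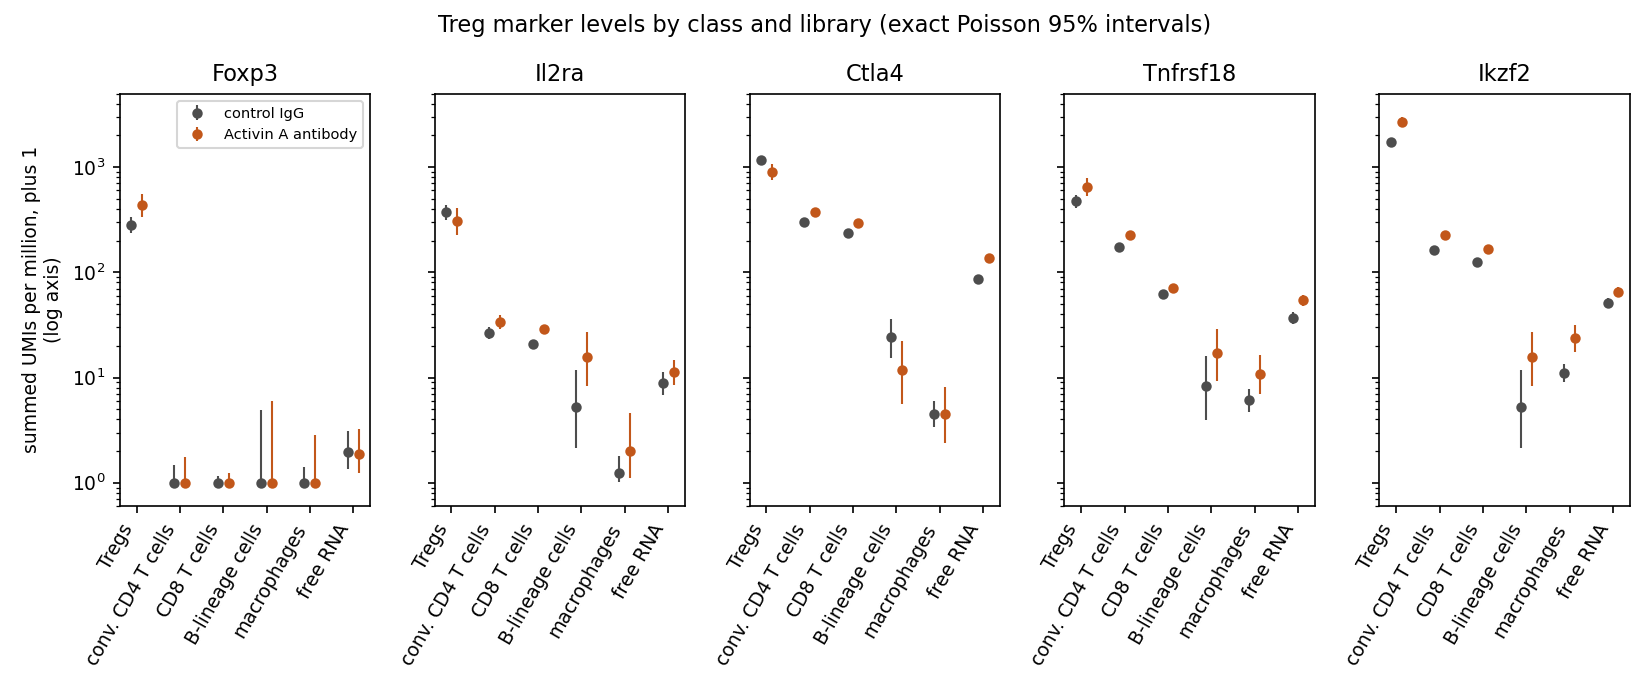
CPM plus 1 (y axis, log scale) of Foxp3 and the 4 other markers in summed cells of each class and in free RNA, by library, with exact Poisson 95% intervals. Foxp3 is at 0 in conventional CD4 and CD8 T cells because those classes were chosen without it, whereas the other 4 markers were not used and were higher in Tregs than in the other classes shown in both libraries.

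Tregs made up a smaller share of the antibody library, but with the filters used here the intervals of the difference included 0 in the shares of kept cells, of Cd3 cells and per conventional CD4 T cell. With cells kept from 500 genes and 500 UMIs, the interval of the share of kept cells left out 0 (log2 ratio -0.73, -1.47 to -0.02), as did that of the share of Cd3 cells (-0.76, -1.50 to -0.06). They were 0.604% of kept cells with control IgG (exact 95% interval 0.453 to 0.790%) and 0.391% with the antibody (0.254 to 0.577%), a log2 ratio of -0.63 (-1.37 to 0.09). Among cells with a Cd3 UMI they were 0.877% and 0.557%, a log2 ratio of -0.66 (-1.40 to 0.06). There were 5.17 and 3.35 Tregs per 100 conventional CD4 T cells, a log2 ratio of -0.62 (-1.37 to 0.09). Per 100 CD8 T cells there were 1.83 and 1.11 Tregs, a log2 ratio of -0.72 whose interval (-1.46 to -0.004) just missed 0. At an equal depth of 2000 UMIs this interval included 0 (log2 ratio -0.55, -1.55 to 0.40).

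To describe what sets Tregs apart, their summed UMIs were compared with those of conventional CD4 T cells, which had a Cd4 and a Cd3 UMI, at most 1 Cd8 UMI and no Foxp3 or Trdc UMI (1026 and 746 cells). The 4 sums were fitted with edgeR's quasi-likelihood test with the library as a block. Of 10937 genes tested, 454 (4.15%) passed a Benjamini-Hochberg adjusted p of 0.05, with 215 (1.97%) higher and 239 (2.19%) lower in Tregs. The balance of higher and lower genes depended on the settings, with 258 higher and 221 lower without TMM scaling of the sums, 250 and 155 with other-lineage cells left out of both classes, and 232 and 123 over cells of at most 20000 UMIs. The median log2 ratio over all genes was -0.06. Below, log2 ratios are Tregs over the other class, with an approximate standard error (SE) taken from the test's F statistic, and a level is the CPM of the summed cells.

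The genes of Treg identity were higher as a group: 11 of the 15 tested passed the test upward and 0 downward, with a median log2 ratio of 1.57. Ikzf2 stood at 1729 CPM in control IgG and 2703 CPM in antibody Tregs, against 163 and 225 CPM in conventional CD4 T cells, a log2 ratio of 3.42 (SE 0.17, adjusted p = 2.6e-85). Il2ra stood at 370.1 and 305 CPM against 25.5 and 32.7, a log2 ratio of 3.53 (adjusted p = 1.72e-59). Ctla4 (1175 and 896 CPM against 302 and 371) and Tnfrsf18 (473 and 651 CPM against 171 and 225) differed less, with log2 ratios of 1.57 and 1.43. In these 4 genes both Treg sums lay above both conventional CD4 sums. Izumo1r, which encodes the folate receptor family member FR4, was at 202 and 332 CPM against 39.5 and 40.4 (log2 ratio 2.58, SE 0.21, adjusted p = 1.01e-30). Lrrc32 encodes GARP, which holds latent TGFβ on the Treg surface, and was at 35.9 and 33.2 CPM against 0.128 and 0.838, with 16 and 5 UMIs in Tregs. Ikzf4, Entpd1, Capg, Socs2 and Itgae also passed. Nrp1, a surface marker used for thymus-derived Tregs, had a log2 ratio of 0.69 and did not pass (adjusted p = 0.0688), nor did Nt5e, Cd81 and Il2rb.

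Genes of activated and tissue Tregs were higher in 9 of 19 and lower in 1, with a median of 0.88. Klrg1, an inhibitory lectin-like receptor found on terminally differentiated Tregs, was at 130.1 and 139 CPM against 9.74 and 5.45 (log2 ratio 4.04, SE 0.42, adjusted p = 6.99e-19). Areg, a growth factor linked to tissue repair, was at 62.8 and 199 CPM against 19.7 and 40.0 (log2 ratio 1.92). Il1rl1, the receptor for IL-33, was at 38.1 and 199 CPM against 16.4 and 20.3 (log2 ratio 2.23). In both genes the antibody Tregs held the higher level, from 30 UMIs of each gene against 28 and 17 UMIs in control IgG Tregs. Maf, Nfil3, Itgb8, Icos, Tnfrsf4 and Tnfrsf9 passed as well. Ccr8, a chemokine receptor known from tumor Tregs, was at 8.97 and 13.3 CPM from 4 and 2 UMIs and did not pass, and neither did Gata3, Batf, Irf4, Prdm1 or Rora. Cxcr6, a homing receptor of tissue-resident T cells, was the member that was lower, at 89.7 and 73.0 CPM against 332 and 382 (log2 ratio -2.11, adjusted p = 2.92e-17).

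Costimulatory receptors were higher in 6 of 11 and lower in 2, with a median of 1.39. Tnfrsf9, which encodes 4-1BB, was at 475 and 491 CPM against 35.1 and 46.1 (log2 ratio 3.54, SE 0.20, adjusted p = 2.01e-67). Tnfrsf4, which encodes OX40, was at 565 and 618 CPM against 152 and 217 (log2 ratio 1.65, adjusted p = 1.08e-17). Tnfrsf1b and Cd27 also passed, with log2 ratios of 1.39 and 1.81. Members of the TNF receptor family thus led this group. Cd40lg, through which helper T cells license antigen-presenting cells, was at 6.73 CPM (3 UMIs) and 0 against 59.1 and 82.1 (log2 ratio in the fit -3.75, adjusted p = 4.7e-09). Cd226, an activating receptor, was lower as well (log2 ratio -2.09, adjusted p = 1.5e-17).

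Suppressive molecules were higher in 10 of 18 and lower in 2, with a median of 1.11. Il10 was at 87.5 and 99.6 CPM against 8.20 and 5.24 (log2 ratio 3.68, SE 0.52, adjusted p = 3.7e-10), with UMIs in 14 of 53 and 9 of 25 Tregs. Of its Treg UMIs, 3 cells held 56.4% and 60%, and at equal depth 2 of 29 and 5 of 15 Tregs held an Il10 UMI. Gzmb, which encodes the cytotoxic protease granzyme B, was at 603 and 471 CPM against 75.1 and 72.9 (log2 ratio 2.80, SE 0.19, adjusted p = 5.52e-46). It was detected in 26 of 53 and 14 of 25 Tregs, and 3 cells held 50.9% and 52.1% of its UMIs. Itgb8, which encodes a subunit of the integrin that activates latent TGFβ, was at 83.0 and 66.4 CPM against 7.56 and 11.3 (log2 ratio 3.01). Tgfb1 itself was at 121 and 159 CPM against 126 and 159, with a log2 ratio of -0.10 that did not pass. Entpd1, Fgl2, Lag3 and Tigit passed upward with smaller ratios of 0.74 to 1.42, and Ebi3, Cd274 and Havcr2 did not pass. Pdcd1, which encodes PD-1, was lower (log2 ratio -0.74, adjusted p = 0.0385), but its call and that of Lgals1 were lost with DESeq2.

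The 15 higher genes with the largest ratios also held genes outside these groups. Frmd5 was at 390.3 and 372 CPM against 19.7 and 3.77, but its UMIs lay in 9 of 53 and 3 of 25 Tregs, with 51 and 37 UMIs in the highest cell, and in 7 and 5 conventional CD4 T cells. Its adjusted p in edgeR's test was 1.5e-101, since the test reads summed UMIs and not the number of cells that hold them. Neb, which encodes the muscle protein nebulin, was detected in 24 of 53 and 13 of 25 Tregs and was at 117 and 166 CPM against 12.4 and 9.43 (log2 ratio 3.55). Lamc1, which encodes a laminin chain, was at 336 and 339 CPM against 69.7 and 85.9, and Phlpp1, an Akt phosphatase, at 307 and 438 CPM against 75.7 and 105. Ankrd55 and Matk were also among them. Ighm, the immunoglobulin mu heavy chain gene of B cells, was at 256 and 159 CPM against 45.1 and 29.5 (log2 ratio 2.42, adjusted p = 1.55e-23), and was detected in 33 of 53 and 12 of 25 Tregs. The B cell list held 122 and 25 UMIs in Tregs, of which 114 and 24 were Ighm, its most abundant gene, and Cd79a, which marks B-lineage cells, was at 0 in Tregs of both libraries. Free RNA held 120.3 and 166 CPM of Ighm and 21.5 and 11.9 CPM of Cd79a, and the part of B cell RNA in this result was not tested further.

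**Figure D3:**
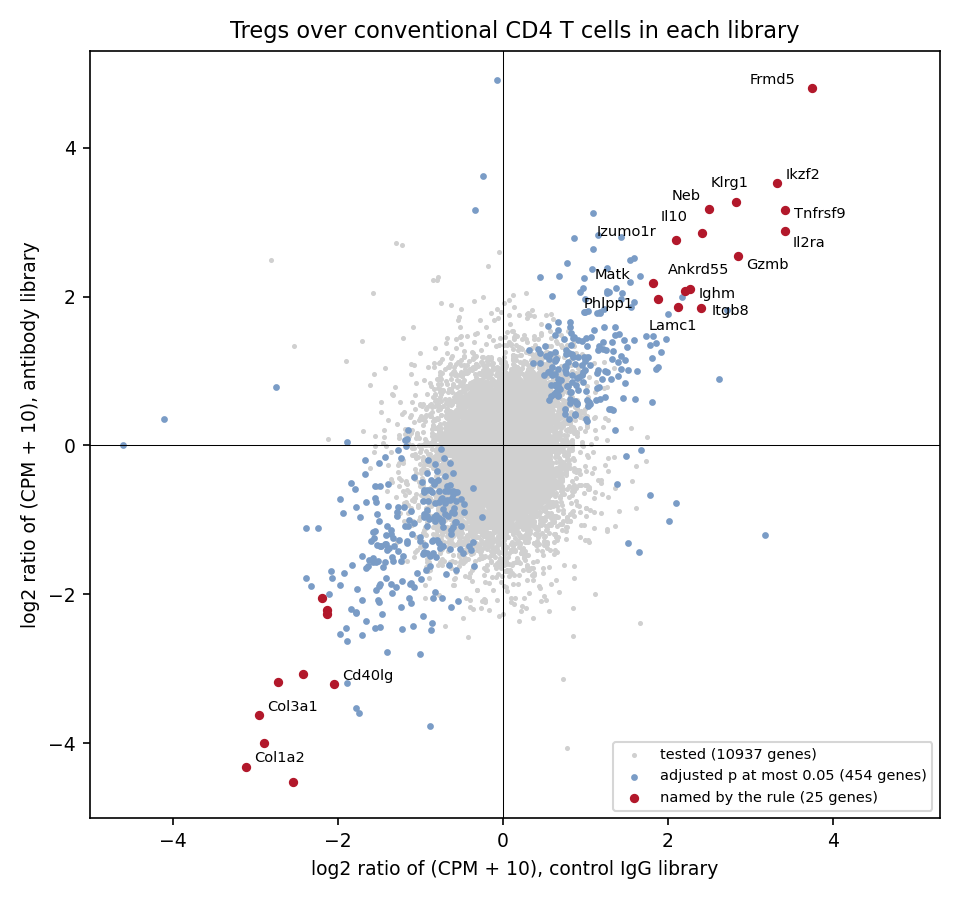
Log2 ratio of (CPM + 10) of Tregs over conventional CD4 T cells in the control IgG library (x axis) and the antibody library (y axis) for 10937 genes, with the 454 genes past the test and the 25 genes named by size marked. The 15 named higher genes lie between 1.82 and 4.79 in both libraries, and 18 of the 454 genes have opposite signs in the 2 libraries.

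The 10 genes with the largest lower ratios were Col1a2, Col3a1, Dcn, Slpi, Col1a1, Col6a1, Saa3, Fstl1, Igfbp6 and Cd40lg. Among them, Col1a1, Col1a2, Col3a1 and Dcn belong to the fibroblast markers used here. Col1a1 was at 8.97 CPM (4 UMIs) and 0 in Tregs against 101 and 220 CPM in conventional CD4 T cells, and at 201 and 354 CPM in free RNA. With cells that held 5 or more other-lineage UMIs left out of both classes, 5 of these 10 genes could still be tested, only Cd40lg passed, and Col1a1 changed sign. Of T cell genes with a lower level in Tregs, Ifng was at 31.4 and 39.8 CPM against 145 and 262 (log2 ratio -2.45, SE 0.29, adjusted p = 8.28e-15). It belongs to the effector cytokines, of which 0 of 12 were higher and 3 lower (Ccl4, Ifng and Il13), with a median of -1.37, of which Ifng passed with DESeq2 and at equal depth, Ccl4 was lost under both and Il13 had no adjusted p under either. Cytotoxic genes were lower in 4 of 10 (Ctsw, Fasl, Klrd1 and Nkg7) and higher in 1, Gzmb, with a median of -1.14. Of the 4 lower calls, that of Ctsw held with DESeq2 and that of Nkg7 at equal depth, and the others were lost under both. Il18r1, a receptor for IL-18, was lower with 74.0 and 113 CPM against 346 and 386 (log2 ratio -2.11).

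Genes of resting and lymphoid T cells gave no common direction, with 2 of 12 higher, 3 lower and a median of -0.22. Tcf7, which encodes the transcription factor TCF1 of naive and memory T cells, was at 24.7 and 13.3 CPM against 103 and 88.2 (log2 ratio -2.25, adjusted p = 5.71e-08). Il7r was higher at 267 and 491 CPM against 213 and 196 (log2 ratio 0.72), although low Il7r is commonly used to mark Tregs. This call was lost with DESeq2, as were those of Klf2 and Bcl2, which were lower. At equal depth Il7r was at 379 and 600 CPM in Tregs against 418 and 319, so its direction turned in the control IgG library. Chemokine and homing receptors were higher in 3 of 16 and lower in 1. Ccr2 was at 357 and 332 CPM against 119 and 127 (log2 ratio 1.44, adjusted p = 1.65e-11), Itgb7 had a log2 ratio of 0.84 and Itgae of 3.35, the last from 14 and 12 UMIs in Tregs. Cytokine receptors were higher in 4 of 19 (Il1rl1, Il2ra, Il6st and Il7r) and lower in 1. Of the fate transcription factors, Ikzf2, Ikzf4, Maf and Foxo1 were higher and Id2, Tbx21 and Tcf7 lower among 25 tested. Tbx21, the T helper 1 factor, had a log2 ratio of -0.84 that did not pass with DESeq2 (nor did Id2 and Foxo1).

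Since Activin A was the target of the antibody given to 1 of the groups, genes of the activin and TGFβ pathways were read as a group. None of 19 tested was higher and 3 were lower, with a median of -0.17 against -0.06 over all genes. Tgfbr2, the ligand-binding TGFβ receptor, was at 69.5 and 93.0 CPM against 204 and 248 (log2 ratio -1.56, SE 0.24, adjusted p = 1.77e-08). Furin, a protease that matures TGFβ family precursors, was at 74.0 and 86.3 CPM against 154 and 256 (log2 ratio -1.31, adjusted p = 6.35e-06), a call lost with DESeq2. Tgfbr3 was at 11.2 CPM and 0, from 5 UMIs of a single Treg, and its call was lost with DESeq2 and at equal depth. Of the activin receptors, Acvr1b had 0 and 1 UMI and Acvr2a 9 and 4 UMIs in Tregs, and a difference in them was not detectable at this depth. Inhba, which encodes the subunit of Activin A, had 1 and 0 UMIs in Tregs.

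Of the other programs, interferon-stimulated genes were higher in 5 of 17 and lower in 0, with Gbp4, Ifi27l2a, Iigp1 and Irf1 among the higher ones and a median of 0.32. Ifi27l2a was at 1714 and 2324 CPM against 953 and 1288 (log2 ratio 0.78, adjusted p = 5.99e-05) and Iigp1 at 195 and 133 CPM against 46.8 and 60.1 (log2 ratio 1.68). Of genes of NF-κB and TNF receptor signaling, Traf3 passed upward among 14. None of 14 glycolysis and hypoxia genes passed, and of 20 cell division genes Hmgb2 and Ube2c were lower and 0 higher. Jun was higher and Hspa1b lower among 19 immediate early and heat shock genes, and Cd2 was higher and Cd247 and Trbc2 lower among 12 genes of the T cell receptor complex. At equal depth 102 of 6307 genes tested passed, of which 87 were among the 454, and DESeq2 called 108, of which 107 were among them. The 15 higher genes with the largest ratios passed under both. Among the genes named above, Entpd1, Maf, Icos, Fgl2, Lag3, Tigit, Pdcd1, Lgals1, Il6st, Il7r, Itgb7, Klf2, Foxo1, Tbx21, Irf1, Gbp4, Traf3, Hmgb2, Ube2c, Jun, Hspa1b and Cd2 passed under neither. Cd40lg and Ifi27l2a did not pass at equal depth, nor Socs2, Cd247 and Trbc2 with DESeq2. Socs2, Ikzf4, Lrrc32 and Il13 had too few UMIs to be tested at equal depth. Of the Treg identity genes, 9 of 15 were higher with DESeq2 and 7 of the 12 tested at equal depth. With cells of 5 or more other-lineage UMIs left out of both classes, 405 genes passed, of which 311 were among the 454. These were 188 of the 215 higher and 123 of the 239 lower genes. Over cells of at most 20000 UMIs, 301 of the 454 passed, 191 higher and 110 lower. With other-lineage cells left out of both classes, the log2 ratios moved by over 1.5 times for Areg (to 3.21), Itgb8 (3.87), Iigp1 (2.63), Ighm (3.11), Frmd5 (6.16) and Lrrc32 (8.20), each away from 0.

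**Figure D4:**
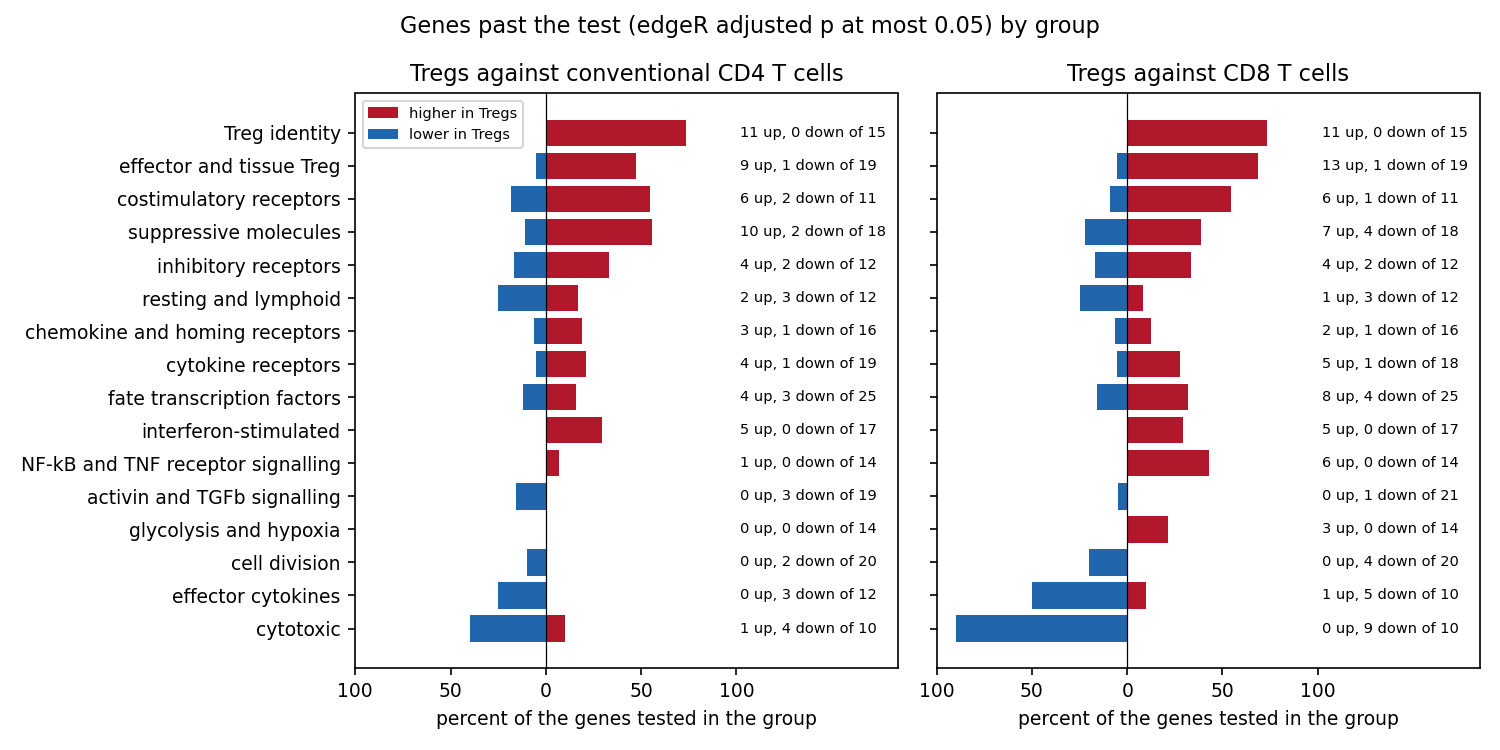
Percent of the tested genes of each group that passed edgeR's test upward (red) or downward (blue) in Tregs, against conventional CD4 T cells (left) and CD8 T cells (right), with the counts beside the bars. Treg identity genes passed upward in 11 of 15 in both comparisons, and cytotoxic genes downward in 4 of 10 and 9 of 10.

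Tregs were next compared with CD8 T cells, the cells they are known to restrain (2901 and 2247 cells with a Cd3 and 2 or more Cd8 UMIs and without Foxp3 or Cd4). Both comparisons share the Treg sums and are not independent of each other. Of 12514 genes tested, 645 (5.15%) passed, with 324 (2.59%) higher and 321 (2.57%) lower in Tregs and a median log2 ratio of -0.10. Without TMM scaling the median moved to 0.01 and 401 genes were higher and 248 lower, so the balance of directions depended on the scaling. Treg identity genes were higher in 11 of 15 (median 1.86) and activated and tissue Treg genes in 13 of 19 (median 2.57), with Cxcr6 lower. With DESeq2 these were 8 of 15 and 11 of 19, and at equal depth 6 of 14 and 8 of 15. Tnfrsf4 was at 10.8 and 14.8 CPM in CD8 T cells, a log2 ratio of 5.44 (SE 0.22, adjusted p = 1.01e-128). Maf, a transcription factor of IL-10 producing T cells, was at 348 and 412 CPM in Tregs against 16.1 and 13.7 (log2 ratio 4.52), where its ratio over conventional CD4 T cells was 0.85. Izumo1r was at 6.98 and 8.48 CPM in CD8 T cells (log2 ratio 4.93). Odc1, the rate-limiting enzyme of polyamine synthesis, was at 561 and 916 CPM in Tregs against 93.2 and 123 (log2 ratio 2.62, adjusted p = 9.24e-41), and Plcb4 at 56.1 and 120 CPM against 3.27 and 4.48. Ccr4, a skin homing receptor, had a log2 ratio of 6.81 from 11 and 3 UMIs in Tregs.

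Cytotoxic genes were lower than in CD8 T cells in 9 of 10, with a median of -2.29. Gzma was at 62.8 and 33.2 CPM against 1103 and 622 (log2 ratio -4.26, adjusted p = 5.63e-60), Klrd1 at 29.2 and 6.64 CPM against 473 and 407, and Prf1, which encodes perforin, at 33.6 and 0 CPM against 92.3 and 89.1. Gzmb differed less, at 603 and 471 CPM in Tregs against 918 and 849, with a log2 ratio of -0.83 (SE 0.18, adjusted p = 0.000161). Granzyme B was thus the cytotoxic gene of this group that was higher than in conventional CD4 T cells and lower than in CD8 T cells. Effector cytokines were lower in 5 of 10 (Ccl3, Ccl4, Ccl5, Ifng and Xcl1) and Ltb was higher. Ccl5 was at 2288 and 1800 CPM against 8445 and 9649 (log2 ratio -2.26), while its ratio over conventional CD4 T cells, 0.23, did not pass. NF-κB and TNF receptor signaling genes were higher in 6 of 14 (Bcl2l1, Birc3, Nfkb2, Nfkbia, Traf1 and Traf3), with a median of 0.85. With DESeq2 3 of 14 were higher, as were 3 of 14 at equal depth, where Birc3 did not pass. Fate factors were higher in 8 of 25, and lower in 4, Runx3 among them. The higher calls of Gata3, Batf, Stat5b, Zbtb7b, Bcl2l1 and Nfkb2 and the lower calls of Prf1 and Xcl1 were lost with DESeq2 and at equal depth. Tgfbr2 was the member of 21 activin and TGFβ genes that passed (log2 ratio -1.38, adjusted p = 3.45e-06), and it passed against both classes with DESeq2 and at equal depth too. Col1a1, Col1a2 and Col3a1 were also among the 10 genes with the largest lower ratios, and none of them passed with other-lineage cells left out of both classes. In that setting 726 genes passed, of which 495 were among the 645, and the log2 ratios of Maf and Plcb4 moved to 5.19 and 5.45.

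The Tregs differed in which genes were detected, and a cell without a UMI of a gene may still express it. Of 78 Tregs, Gzmb was detected in 40, Klrg1 in 31, Mki67 or Top2a in 31 and Il10 in 23. Klrg1 occurred in 14 of the 26 Gzmb-positive control IgG Tregs and 6 of the 14 antibody ones, against 21 of 53 and 10 of 25 in all Tregs. In the control IgG library, Il10-positive Tregs had a median of 9578 UMIs and Tregs with Mki67 or Top2a 9206, against 5537 over all. Gzmb- and Klrg1-positive control IgG Tregs had medians of 6828 and 6537 UMIs. In the antibody library, Il10-positive Tregs had a median of 3744 UMIs against 4168 over all, and Gzmb- and Klrg1-positive ones 4309 and 4034. Il10-positive Tregs held a median of 1.5 and 1 Il10 UMIs. The part of depth in these shares was not tested.

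Dividing cells, taken as those with an Mki67 or Top2a UMI, were 23 of 53 (43.4%, 29.8 to 57.7%) control IgG Tregs and 8 of 25 (32.0%, 14.9 to 53.5%) antibody Tregs. Conventional CD4 T cells had 39.8% and 31.5% and CD8 T cells 43.2% and 37.0%, within the Tregs' intervals. A looser count, 3 or more UMIs of the cell division list, also took in cells without an Mki67 or Top2a UMI and is not a share of dividing cells. It was met by 69.8% (55.7 to 81.7%) and 76.0% (54.9 to 90.6%) of Tregs. Of conventional CD4 T cells 85.8% and 80.3% met it, and of CD8 T cells 84.8% and 80.3%, of which the control IgG shares lay above the Tregs' interval. The part of depth in this count was not tested. At equal depth, 4 of 29 (13.8%) and 4 of 15 (26.7%) Tregs were dividing, so the order of the libraries turned and no difference in division could be read.

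Between the libraries, many of the genes that differed in Tregs came from single cells. Of 2250 genes with at least 50 UMIs in Tregs, 119 (5.29%) were past a 2-fold difference on the log2 (CPM + 10) scale, 49 (2.18%) higher and 70 (3.11%) lower with the antibody. In conventional CD4 T cells, which are many more, 9 (0.400%) of the same genes were. Retnla had 70 UMIs in antibody Tregs, all of them in the cell with macrophage markers, and 0 in control IgG Tregs, and Lyz2 had 97.2% of its antibody UMIs in a single cell. Lgals7, Apoe, Pde10a, Nedd4, Mid1, Gm47283, Dlk1, Tshz2, Sparc and Igfbp4 were lower with the antibody, and each had at least 87.8% of its control IgG UMIs in 1 cell. Without the 8 Tregs that held 5 or more other-lineage UMIs, the ratio of Lgals7 on this scale moved from -5.23 to -1.21, and those of Mid1 and Dlk1 turned from -3.84 and -3.23 to 0.13 and 0.40. Over 50% of the UMIs of the higher library lay in 1 cell for 15 of the 20 genes with the largest ratios and for 43 of the 119 (36.1%), 8 of the 49 higher and 35 of the 70 lower ones.

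With the 8 Tregs that held 5 or more other-lineage UMIs left out (47 and 23 remained, chosen after seeing the data), 49 of 1589 genes (3.08%) were past a 2-fold difference, 18 higher and 31 lower with the antibody, against 4 (0.252%) in conventional CD4 T cells. Nkg7, a granule protein gene of cytotoxic lymphocytes, had 222 UMIs in control IgG Tregs, found in 27 of 47 cells, and 21 UMIs in antibody Tregs, found in 4 of 23 cells, a log2 ratio of CPM of -2.10 (counting interval -2.82 to -1.45). The ratio was -0.79 with all Tregs kept, where 59.6% of the antibody UMIs lay in 1 cell, and 0.08 in conventional CD4 T cells filtered in the same way. Pag1, a membrane adaptor of T cell receptor signaling, had 62 and 6 UMIs (log2 ratio -2.06), and Hist1h2ap, Arsb, Ech1, Tax1bp1, Prr13, Emp3 and Ctsd were also lower. Among higher genes, Dusp5, a phosphatase that acts on ERK, was found in 18 of 47 and 13 of 23 cells with 26 and 30 UMIs (log2 ratio 1.51, 0.71 to 2.33), and Cd69, an early activation and retention receptor, in 20 and 12 cells with 33 UMIs each (log2 ratio 1.31, 0.57 to 2.05). Gm11290 (1.74), Elavl1, Plac8, Plcl2, Hivep2, Smap2, Tuba1b and Aff1 were higher too. Some of these moved alike in conventional CD4 T cells, where Gm11290 and Dusp5 had log2 ratios of 1.29 and 0.96, and Hist1h2ap one of -1.85.

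Summed over these 70 Tregs, genes of Treg identity were at 6641 CPM with control IgG and 7104 with the antibody (log2 ratio 0.10, -0.02 to 0.21). Over all 78 Tregs their log2 ratio was 0.26 (0.15 to 0.37), with an interval off 0, and it was 0.23 in all conventional CD4 T cells. Without Ikzf2, their most abundant gene, it was 0.04 (-0.10 to 0.18) over all Tregs and -0.13 (-0.28 to 0.02) over the 70. Suppressive molecules summed to 6621 and 4548 CPM, a log2 ratio of -0.54 (-0.68 to -0.41), but Lgals1, which encodes galectin-1, held 909 and 191 of their UMIs. Without it the log2 ratio was -0.28 (-0.45 to -0.10), and -0.06 (-0.22 to 0.10) over all 78 Tregs, so a difference of these molecules as a group was not shown. Cytotoxic genes summed to 1782 and 890.0 CPM, a log2 ratio of -1.0 (-1.31 to -0.70), of which Nkg7 was a large part. Without Nkg7 the log2 ratio was -0.55 (-0.90 to -0.20), and without Gzmb, their most abundant gene, it was -1.79 (-2.31 to -1.31). Natural killer cell markers had 38 and 3 UMIs in these 70 Tregs (log2 ratio -2.36, -4.70 to -0.70). However, 1 control IgG cell of 16883 UMIs, which stayed among the 70, held 30 of these 38 UMIs. The same cell held 30 of the 42 control IgG UMIs over all 78 Tregs, so a lower level across cells was not shown. Gzma belongs to both lists, and the part of natural killer cell RNA in this difference was not tested. The full sums of suppressive and cytotoxic genes had log2 ratios of -0.02 and 0.01 in conventional CD4 T cells filtered in the same way. Cell division genes summed to 3789 and 5658 CPM (log2 ratio 0.58, 0.44 to 0.72), against -0.29 in those conventional CD4 T cells. The highest antibody cells among the 70 held 214, 141 and 122 of the 693 UMIs of these genes. The highest control IgG cells held 254, 163 and 127 of 1148. Over all 78 Tregs the log2 ratio of cell division genes was 0.12 (-0.01 to 0.24). The share of dividing cells among the 70 went the other way, with 20 of 47 and 8 of 23 cells (log2 ratio -0.29, -1.68 to 0.95). NF-κB and TNF receptor signaling genes had a log2 ratio of 0.39 and activin and TGFβ genes of 0.37, against 0.56 and 0.34 in conventional CD4 T cells. The intervals cover the counting of UMIs in 1 library per group, and are too narrow where few cells hold the UMIs.

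**Figure D5:**
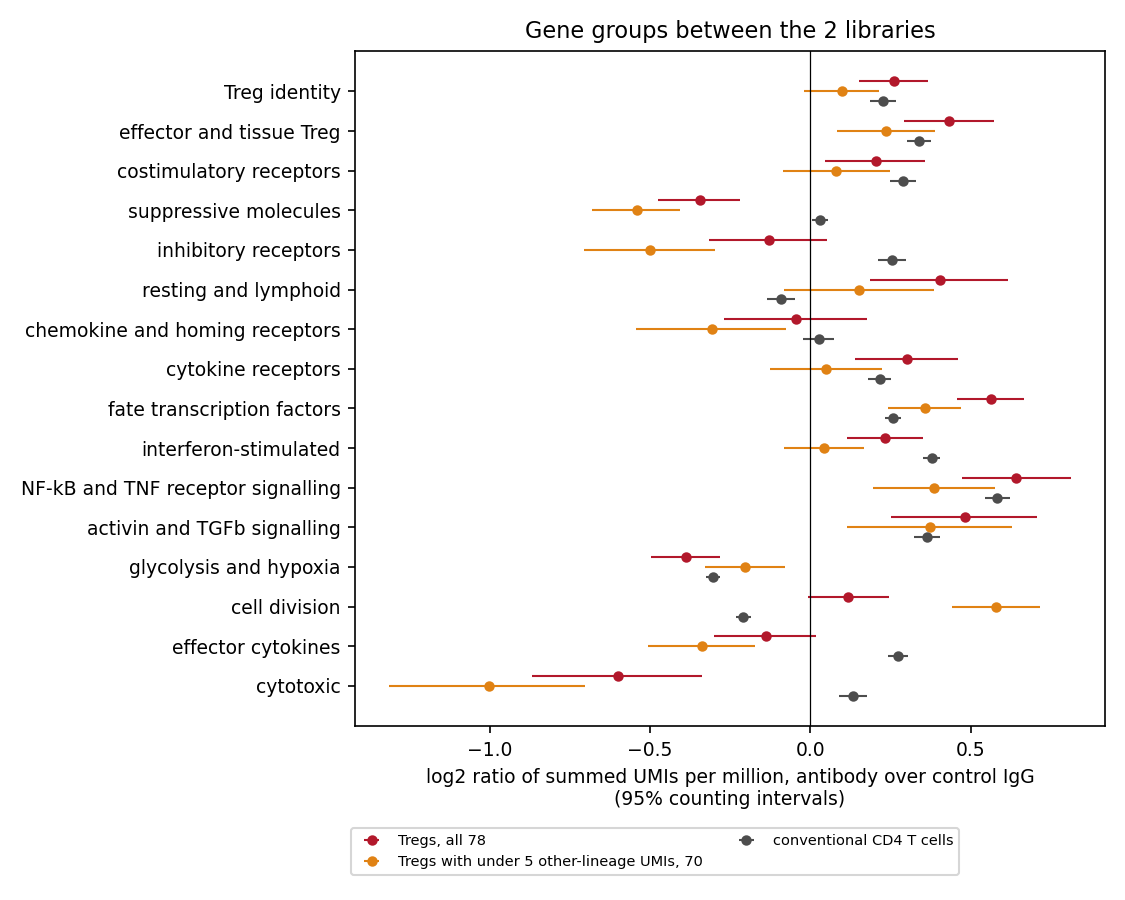
Log2 ratio of summed CPM, antibody over control IgG (x axis), for each gene group in all 78 Tregs, in the 70 Tregs with under 5 other-lineage UMIs and in conventional CD4 T cells, with 95% counting intervals. Cytotoxic genes and suppressive molecules lie below 0 in both sets of Tregs and at 0.13 and 0.03 in conventional CD4 T cells, with 1 library per group and no test.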

How the data were processed

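Tumor cells were profiled by 10x single-cell RNA sequencing, 1 library per group. The deposited matrices hold whole-number UMI counts of each gene in each barcode, not normalized, which per the file headers and the labels the authors made with Cell Ranger (the matrix header gives version 4, the submitters' processing notes version 7.0.1 with mm10), with empty barcodes kept. Depth was 98174850 UMIs with control IgG and 74117462 with the antibody. Members, gene lists and alternatives were chosen with earlier results of these data known. No doublet caller was run, and doublets were kept as the rule has it. Cells with a Cd3 UMI and without Foxp3 formed the comparison classes: conventional CD4 T cells (a Cd4 UMI, at most 1 Cd8 UMI, no Trdc) and CD8 T cells (2 or more Cd8 UMIs, no Cd4). Macrophages had 3 or more C1qa, C1qb and C1qc UMIs and B-lineage cells 2 or more Cd79a UMIs, both without Cd3. Free RNA was the sum of barcodes with under 100 UMIs. UMIs were summed per library and class, and the 4 sums of a comparison were fitted with edgeR 4.0.16 (R 4.3.3; filterByExpr, TMM, library as a block, quasi-likelihood test, Benjamini-Hochberg adjustment, threshold 0.05) with 1 residual degree of freedom. The 2 libraries are also the 2 treatments, and cells are not replicates. The p-values rest on a spread between these sums that edgeR draws toward a value shared by genes. They do not measure the spread between mice or the number of cells behind a sum. SE is the absolute log2 ratio divided by the square root of the test's F. The tests were checked on simulated data, whose results are not given here and on which no statement above rests. DESeq2 1.42.0, cells thinned to 2000 UMIs (seed 1) and other filters were alternatives. Between libraries there was no test: ratios of genes with at least 50 UMIs are given with conditional binomial intervals, shares with Clopper-Pearson and levels with Poisson intervals, each at 95%, which cover counting error only. A gene with 0 UMIs was bounded at 3 counts, and a share of 0 cells at 3 cells. Genes were named if they belonged to a list or, in a class comparison, were called, had the same direction in both libraries and at least 20 UMIs in each, and were among the 15 higher or 10 lower with the largest smaller ratio of CPM + 10 of the 2 libraries. Between libraries, the 10 higher and 10 lower genes with the largest ratios and an interval off 0 were named. Some results, 1 split of the Tregs and its alternatives among them, are not reported here. The alternatives without Ighm among the other-lineage markers, with other-lineage cells left out of both classes and with at most 20000 UMIs, and the list sums without their most abundant gene, were chosen after seeing the data. Of the list genes, Mx1, Trgc1, Trgc2 and Scart2 were not matched, and Aldoa was dropped for having 2 identifiers. Gene positions are from GENCODE M21 (GRCm38). Python 3.11.15 with numpy 2.4.6, scipy 1.17.1, pandas 2.3.3 and matplotlib 3.10.9 was used.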

Additional observations from a re-analysis of the deposited data

Results flagged for a closer look

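Several differences between the libraries in Tregs had the opposite sign in conventional CD4 T cells, with both counting intervals off 0. The difference between the classes was not tested, since each group has 1 library. In all 78 Tregs, Lyz2 had a log2 ratio of antibody over control IgG of 5.22, against -0.50 in conventional CD4 T cells, and 97.2% of its antibody UMIs lay in 1 cell. Cd74 had 2.0 against -0.10 and H2-Aa 1.57 against -0.25, and 52.7% and 57.4% of their antibody UMIs lay in 1 cell. In the 70 Tregs with under 5 other-lineage UMIs, the signs of these 3 genes turned, with ratios on the log2 (CPM + 10) scale of -1.58 for Lyz2, -0.88 for Cd74 and -1.0 for H2-Aa. In these 70 Tregs, Nkg7 had -2.10 against 0.08, Pag1 -2.06 against 0.29 and Tax1bp1 -1.78 against 0.16. Of the summed gene groups over all Tregs, resting and lymphoid genes had a log2 ratio of 0.40, suppressive molecules of -0.35 and cytotoxic genes of -0.60, against -0.09, 0.03 and 0.13 in conventional CD4 T cells. Resting and lymphoid genes had 0.15 (-0.08 to 0.38) over the 70 Tregs, and without Il7r 0.25 (-0.01 to 0.50) over all Tregs, both with intervals that include 0. Lgals1 held 1070 and 208 UMIs of the suppressive molecules, whose log2 ratio without it was -0.06 (-0.22 to 0.10). Cytotoxic genes had -0.79 (-1.17 to -0.44) without Gzmb and -0.48 (-0.82 to -0.15) without Nkg7. Natural killer cell markers had -1.50 (-3.20 to -0.17) over all Tregs, from 42 and 5 UMIs, and 1 control IgG cell held 30 of the 42. Over the 70 Tregs, inhibitory receptors had -0.50, effector cytokines -0.34 and cell division genes 0.58, against 0.18, 0.12 and -0.29. Over all 78 Tregs these were -0.13 (-0.32 to 0.05), -0.14 (-0.30 to 0.02) and 0.12 (-0.01 to 0.24), with intervals that include 0. Without Ccl5, effector cytokines had -0.11 (-0.43 to 0.19) over the 70 Tregs and 0.32 (0.04 to 0.60) over all Tregs. Without Ctla4, inhibitory receptors had -0.36 (-0.65 to -0.09) and 0.10 (-0.15 to 0.35). Without Hmgb2, cell division genes had 0.52 (0.35 to 0.69) and -0.05 (-0.21 to 0.10).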

How the results depend on the processing

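No paired analysis was possible because each treatment has a single library, and the library was the block in the class comparisons. The log2 ratios of Ikzf2 (3.07 to 3.71), Il2ra (2.89 to 4.39), Ctla4 (1.25 to 2.70) and Tnfrsf18 (1.42 to 2.50) over conventional CD4 T cells kept their direction under the 7 alternatives run, and the log2 ratio of the Treg share of kept cells stayed below 0 under 9 (-0.76 to -0.25), with an interval off 0 under 1 of them, cells from 500 genes and 500 UMIs. The 454 of 10937 genes called against conventional CD4 T cells became 108 with DESeq2 and 188 without the library block. Where the number of genes tested changed too, 102 of 6307 were called at 2000 UMIs per cell and 302 of 10640 with Foxp3 at 2 or more UMIs. With a comparator with or without Cd4, 1079 of 13552 were called, and without dividing cells 131 of 9057. The 645 of 12514 genes called against CD8 T cells became 244 of 12514 with DESeq2 and 189 of 8998 at 2000 UMIs. The 119 of 2250 genes past 2-fold between libraries became 47 of 2250 with a pseudocount of 50 CPM. From 20 UMIs they were 473 of 4944, and from 1 UMI 1654 of 13080. Without members of 5 or more other-lineage UMIs they were 47 of 1300 with Ighm counted and 49 of 1589 with Ighm not counted. They were 11 of 244 at 2000 UMIs and 70 of 1325 with Foxp3 at 2 or more UMIs. Without dividing cells they were 57 of 880, and with at most 20000 UMIs 76 of 1763. The log2 ratio of the dividing share, -0.44, turned to 0.95 at 2000 UMIs and to 0.12 with 3 or more UMIs of the cell division list. The causes of these changes were not tested. With 53 and 25 Tregs, a gene at a few CPM rests on single UMIs, so its absence from a library was not detectable at this depth.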
